A study of Mus musculus with 2 samples.

Results

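Transcript levels of 5 genes were examined in a pair of YFP-positive CD4+ T cell populations: the Ikaros family transcription factor genes Ikzf1, Ikzf2, Ikzf3 and Ikzf5, and Nrp1, which encodes neuropilin-1. They were taken by symbol from the 41592 gene rows of the deposited expression table, and Ikzf4, the remaining gene of the family, is not among them. All 5 had a mean of at least 1 FPKM, as did 12820 genes in all. FPKM is the number of counted fragments scaled to the length of the gene and the total of the library.

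The T cells were isolated from spleen and lymph node tissue of C57BL/6 mice, 6 to 8 weeks old, of the genotype Foxp3 dCNS1-Cre-R26-YFP. As that name reads, Cre is driven by Foxp3 regulatory DNA without CNS1, an element of the Foxp3 locus, and a YFP reporter at Rosa26 marks cells in which Cre has acted, together with their progeny. CD4+ cells were enriched with magnetic beads and sorted as Thy1.1-YFP+ or Thy1.1+YFP+ cells, called Thy1.1- and Thy1.1+ below, with a typical purity above 97%. Regulatory T (Treg) cells of thymic origin and exFoxp3 precursors are the populations the series names. Since its design text assigns 1 marker pair to both, they are called here by their sorted surface and reporter markers, as titled. The sources used here do not state how many mice were used or what drives Thy1.1. With 1 library per population, differences could not be checked against replicates, and no p-value is given. The libraries held 18536339 (Thy1.1-) and 18600581 (Thy1.1+) counted reads. In such bulk samples, fewer cells that express a gene and less RNA per cell cannot be told apart.

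Ikaros family proteins bind DNA through a cluster of zinc fingers near the start of the protein and pair with each other through further fingers at its end. They recruit chromatin-remodelling and corepressor complexes and are known as regulators of lymphocyte development. Ikzf1 encodes Ikaros, Ikzf2 encodes Helios, Ikzf3 encodes Aiolos and Ikzf5 encodes Pegasus, the most divergent of these. Neuropilin-1 is a surface co-receptor for class 3 semaphorins and vascular endothelial growth factors, and on Treg cells it also binds Sema4a. Helios and neuropilin-1 are widely used as marks of Treg cells that arose in the thymus rather than in the periphery.

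The coding sequence of the second zinc finger is shown because it displays how close Ikzf1, Ikzf2 and Ikzf3 are, beside the finger of the same number in Ikzf5. The sequences come from the GENCODE M21 transcript with the longest complete coding sequence of each gene, on GRCm38. The second finger lies in exon 6 of Ikzf1 (chr11:11754024-11754086, plus strand), exon 5 of Ikzf2 (chr1:69570581-69570643, minus strand), exon 5 of Ikzf3 (chr11:98488940-98489002, minus strand) and exon 4 of Ikzf5 (chr7:131392501-131392563, minus strand). Each runs from the first cysteine to the last histidine codon, 5′ to 3′, and capitals mark the 2 cysteine and 2 histidine codons that hold the zinc.
Ikzf1: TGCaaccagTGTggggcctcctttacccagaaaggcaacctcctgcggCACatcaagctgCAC
Ikzf2: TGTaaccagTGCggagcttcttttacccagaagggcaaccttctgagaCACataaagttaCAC
Ikzf3: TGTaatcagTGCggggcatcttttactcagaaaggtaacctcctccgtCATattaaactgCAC
Ikzf5: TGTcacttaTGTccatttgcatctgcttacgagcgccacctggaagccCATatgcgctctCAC

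In Ikzf1, Ikzf2 and Ikzf3 all 21 codons of this finger encode the same residues, although only 51 of 63 bases were the same between Ikzf1 and Ikzf2, 51 of 63 between Ikzf1 and Ikzf3, and 48 of 63 between Ikzf2 and Ikzf3. Matched by number, Ikzf5 shared 5 of 21 encoded residues and 26 of 63 bases with Ikzf1. Ikzf5 has 3 fingers near its start against 4 in Ikzf1, so equal numbers need not correspond: its second finger shared 9 of 21 residues with finger 3 of Ikzf1, and its finger 4 shared 14 of 21 with finger 5 of Ikzf1, the latter pair near the end of both proteins. In the first finger, Ikzf1 and Ikzf3 shared 16 of 21 encoded residues, and Ikzf1 and Ikzf2 shared 19 of 21. By the pattern used, the longest coding sequences held 6 fingers in Ikzf1 and in Ikzf2, and 5 in Ikzf3 and in Ikzf5. A finger that departs from the pattern is not counted, and in Ikzf3 none was found between residues 195 and 452. These counts can therefore fall short of the true number of fingers. Annotated isoforms differ in the number of fingers: 2 of 4 complete coding transcripts of Ikzf1 and 4 of 6 of Ikzf2 had fewer than 6, down to 3. The deposited values are per gene and do not separate these isoforms.

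For Nrp1, the last 20 codons before the stop are shown, in exon 17 of the 923-residue coding transcript (chr8:128502752-128502811, GRCm38, plus strand), because a protein of the pathway described later binds there. Capitals mark the last 3 codons, which encode the end of the cytoplasmic tail that the PDZ protein encoded by Gipc1 recognises.
Nrp1: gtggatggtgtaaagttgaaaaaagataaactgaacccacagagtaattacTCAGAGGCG

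All 5 genes were expressed in both populations, and none differed by 2-fold. By FPKM as deposited, Ikzf2 was the most abundant, Ikzf3 differed most and Nrp1 least. The order of Ikzf2, Ikzf1 and Nrp1 by level depends on the gene length used, and which member differed least depends on the scaling. The call rule was a change of at least 1 in log2(FPKM + 1), which is 2-fold on that scale. By this rule 0 of the 5 members were called, where 395 of 12820 genes, 3.08%, were called in either direction. Differences are given as Thy1.1- minus Thy1.1+ cells and ratios as Thy1.1- over Thy1.1+ cells. Intervals are at 95% and cover counting error only.

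Ikzf2 (Helios, ENSMUSG00000025997) stood at 328 FPKM in the Thy1.1- library and 362 FPKM in the Thy1.1+ library, from 14892 and 16533 reads. The ratio was 0.904 (0.884 to 0.924), a difference of -0.15 on the log2 scale. Helios transcripts were thus slightly lower in the Thy1.1- library by more than counting error, except after rescaling by the upper quartile, where the ratio was 1.08. Among the 2418 genes with a mean of at least 50 FPKM, 50.5% had a larger absolute difference. By level, Ikzf2 ranked 265 among 12820 genes in the Thy1.1- and 231 in the Thy1.1+ library, within the top 2.07% and 1.80%.

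Ikzf1 (Ikaros, ENSMUSG00000018654), the founding member and a regulator of T and B cell development, stood at 185 FPKM in the Thy1.1- and 175 FPKM in the Thy1.1+ library, from 7446 and 7061 reads. Its ratio was 1.06 (1.02 to 1.09), with a difference of 0.08. The Ikzf1 difference was small next to those of other well-expressed genes, 70.2% of which had a larger absolute difference. When both libraries were centred on the median gene, the ratio of 1.03 had an interval of 0.999 to 1.07 that included 1.

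Ikzf3 (Aiolos, ENSMUSG00000018168), best known from B cells and also expressed in effector T cells, had 118 FPKM in the Thy1.1- and 93.4 FPKM in the Thy1.1+ library, from 5374 and 4258 reads. Its ratio of 1.27 (1.22 to 1.32) was a difference of 0.34. Aiolos transcripts were therefore higher in the Thy1.1- library beyond counting error, and that held under all 5 scalings described below. Of the genes with a mean of at least 50 FPKM, 16.2% had a larger absolute difference, and among all 12820 genes the Ikzf3 difference lay at percentile 85.8.

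Ikzf5 (Pegasus, ENSMUSG00000040167) stood at 49.7 FPKM in the Thy1.1- and 51.7 FPKM in the Thy1.1+ library, from 1497 and 1564 reads. Its ratio of 0.960 (0.894 to 1.03) had an interval that included 1, so a difference was not detectable at this depth with the deposited scaling. This gene had the fewest reads of the 5 and so the widest interval.

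Nrp1 (neuropilin-1, ENSMUSG00000025810) stood at 53.9 FPKM in the Thy1.1- and 54.5 FPKM in the Thy1.1+ library, from 5900 and 5988 reads. Its ratio was 0.989 (0.954 to 1.03), and no difference was detectable at this depth with the deposited scaling. Of the genes with a mean of at least 50 FPKM, 94.0% had a larger absolute difference. The interval leaves room for a Thy1.1- level between 0.954 and 1.03 times the Thy1.1+ one, and covers neither the scaling nor variation between animals. Centred on the median gene, the Nrp1 ratio of 0.964 had an upper bound just under 1, and by the upper quartile the ratio was 1.18 (1.14 to 1.22).

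**Figure D1:**
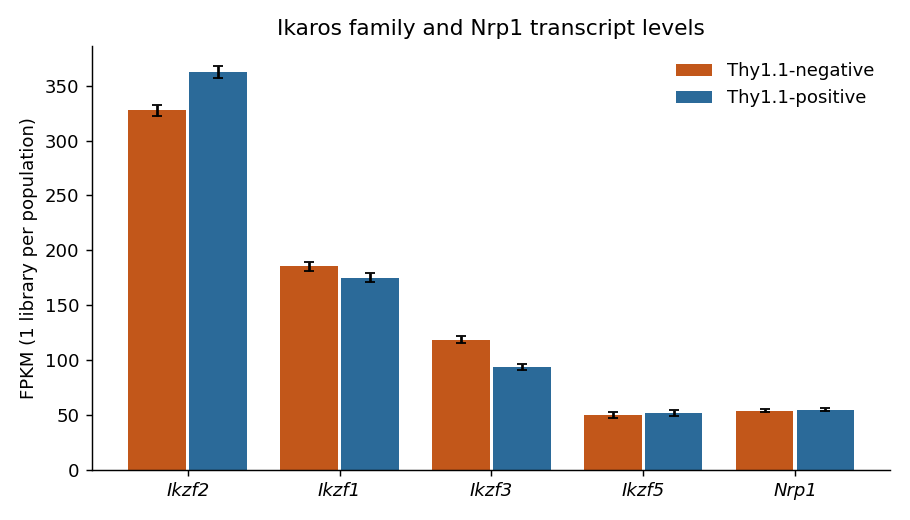
FPKM of the 5 genes (y axis, from 0) in the Thy1.1- and the Thy1.1+ library, 1 bar per library, with exact Poisson 95% intervals of the counted reads as error bars. Ikzf2 is highest in both at 328 and 362 FPKM, and Nrp1 and Ikzf5 are lowest at about the same level.

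The order of levels by FPKM was the same in both libraries: Ikzf2, then Ikzf1, Ikzf3, Nrp1 and Ikzf5. The neighbours Nrp1 and Ikzf5 were close. Their Poisson intervals overlapped in the Thy1.1+ library (53.1 to 55.9 and 49.2 to 54.4 FPKM) and lay side by side in the Thy1.1- library (52.5 to 55.3 and 47.2 to 52.3 FPKM). The order between genes also rests on the gene length behind the FPKM. The lengths implied by the deposited values were 2167 bases for Ikzf1, 2453 for Ikzf2, 2450 for Ikzf3 and 1625 for Ikzf5, much shorter than all annotated exons of these genes together (5777, 11613, 8754 and 5721 bases). For Nrp1 the implied length was 5907 bases, of 9785 bases of annotated exons, and it exceeds the longest annotated transcript of 3645 bases, so the read numbers of Nrp1 rest on a length that GENCODE M21 does not hold.

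Per kilobase of all annotated exons, Ikzf2 and Ikzf1 were level in the Thy1.1- library, at 1282 and 1289 reads per kilobase, where by FPKM Ikzf1 had 0.566 of the Ikzf2 level. In the Thy1.1+ library Ikzf2 stayed above Ikzf1 on that scale, at 1424 against 1222 reads per kilobase. Nrp1 reached 603 and 612 reads per kilobase in the Thy1.1- and Thy1.1+ libraries, against 614 and 486 for Ikzf3, so these genes changed places in the Thy1.1+ library. Per kilobase of the longest annotated transcript, Nrp1 was above Ikzf3 in both libraries, with Nrp1 over Ikzf3 at 1.39 and 1.78 against 0.455 and 0.583 by FPKM, and at 1619 reads per kilobase it was also above Ikzf2 (1605) in the Thy1.1- library. That transcript of Nrp1 is shorter than the implied length. Ikzf5 was lowest by each of these lengths. Per kilobase of all exons it had 262 and 273 reads. A comparison of the same gene between the libraries does not involve the length.

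Each scaling multiplies every gene of a library by 1 factor, so the ratio of one member to another does not depend on it. For Ikzf2 to Ikzf3, Helios to Aiolos, this FPKM ratio was 2.77 in the Thy1.1- and 3.88 in the Thy1.1+ library, and the first over the second was 0.714 (0.682 to 0.747). The balance between these factors was thus shifted towards Aiolos in the Thy1.1- library, by more than counting error. For Ikzf1 to Ikzf2 the FPKM ratio was 0.566 against 0.483, a ratio of ratios of 1.17 (1.13 to 1.22). For Ikzf2 to Nrp1, the marks of thymic origin, it was 6.08 against 6.65, a ratio of ratios of 0.914 (0.876 to 0.954). For Ikzf5 to Nrp1 it was 0.971 (0.897 to 1.05). Of the 10 pairs of members, 8 had an interval that left out 1, and the pairs of Ikzf5 with Ikzf2 and with Nrp1 did not. Pairs of other genes were not counted in this way, and the intervals cover counting error only. The count of 8 of 10 is therefore not shown to be particular to these members.

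With the deposited scaling, the summed FPKM of the 4 Ikaros family members was nearly the same in both libraries, at 681 in the Thy1.1- and 683 in the Thy1.1+. Within that sum, Ikzf2 held 48.1% in the Thy1.1- and 53.1% in the Thy1.1+ library, whereas Ikzf3 held 17.4% and 13.7%. Ikzf1 held 27.2% and 25.7%, and Ikzf5 7.30% and 7.58%. Rescaling by the upper quartile multiplies the Thy1.1- sum by 1.19 and leaves the shares as they are. The shares do depend on the gene length used. Per kilobase of all annotated exons, Ikzf2 held 37.2% and 41.8% and Ikzf1 37.4% and 35.9%. Ikzf4, which encodes Eos, a Foxp3 partner, is outside these members and was the family gene with a difference past 2-fold, at 70.9 against 148 FPKM, a difference of -1.05 that was -0.80, within 2-fold, by the upper quartile. With Ikzf4 in the sum, the family totals were 752 and 831 FPKM, and the share of Ikzf2 was 43.6% in both libraries. The share of Ikzf3 was then 15.7% in the Thy1.1- and 11.2% in the Thy1.1+ library, and that of Ikzf4 9.43% and 17.8%.

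**Figure D2:**
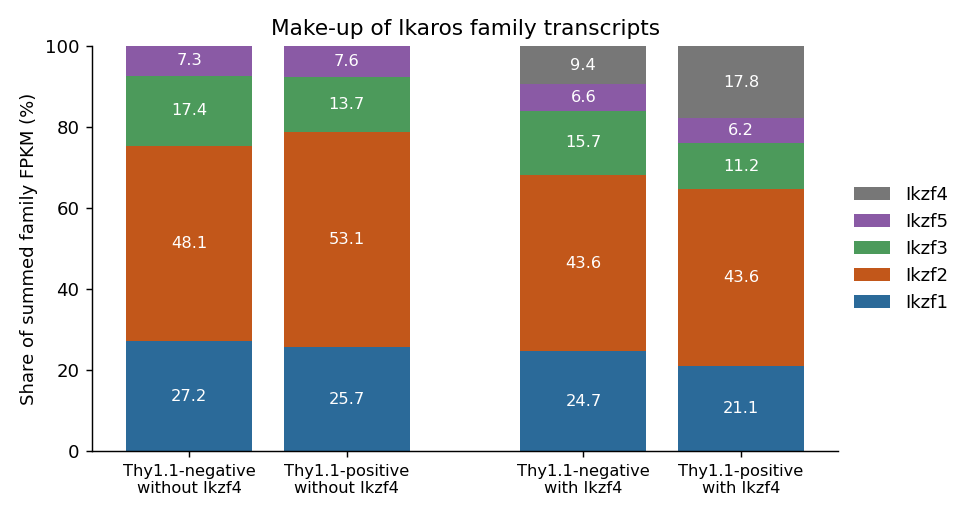
Stacked bars of the share of each gene in the summed FPKM of the Ikaros family (y axis, percent), per library, without Ikzf4 on the left and with it on the right. Without Ikzf4 the Ikzf2 share differs (48.1% and 53.1%), and with Ikzf4 it is 43.6% in both.

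Among all 12820 genes the median difference was 0.03, with quartiles at -0.14 and 0.21, and 55.1% of the differences lay above 0. The differences of Ikzf1, Ikzf5 and Nrp1 lay between those quartiles, that of Ikzf2 lay at percentile 24.3, just under the lower one, and that of Ikzf3 above the upper one. The sign of 3 members turned when the libraries were rescaled by the upper quartile of values above 0, which moved the median of all genes to 0.26: Ikzf2 was then at 0.11, Nrp1 at 0.24 and Ikzf5 at 0.20. Since each scaling applies 1 factor to every gene of a library, positions relative to the median gene hardly move by construction. On that measure Ikzf2 lay at -0.17 with the deposited values and at -0.15 by the upper quartile. Ikzf3 lay at 0.31 and 0.33, and Nrp1 at -0.05 and -0.02.

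**Figure D3:**
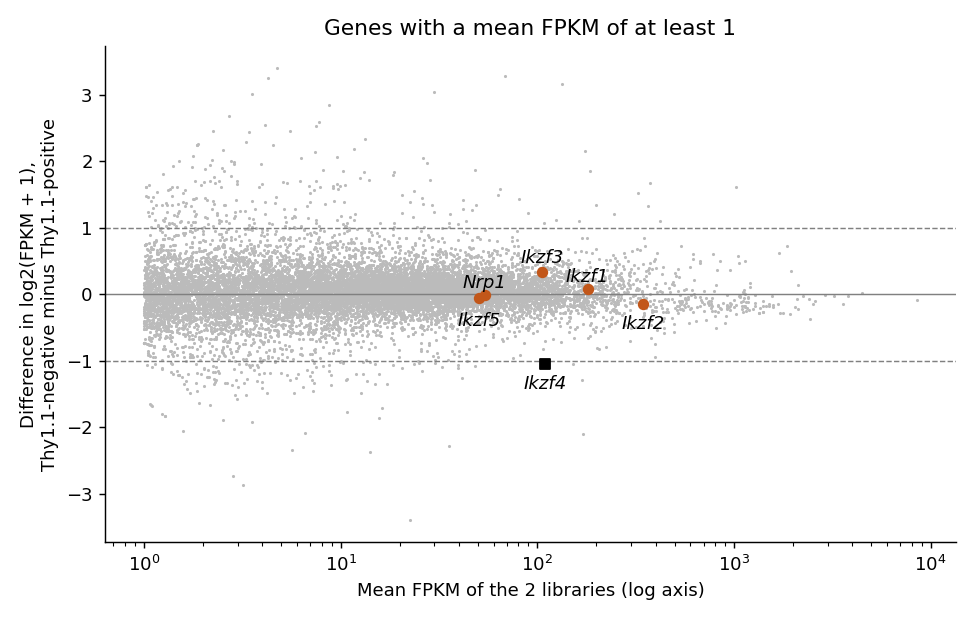
Each grey point is 1 of 12820 genes, with the mean FPKM of both libraries on the x axis (log axis) and the difference in log2(FPKM + 1), Thy1.1- minus Thy1.1+, on the y axis. The 5 members (orange circles) lie between the dashed 2-fold lines, whereas Ikzf4 (black square) lies at -1.05.

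**Figure D4:**
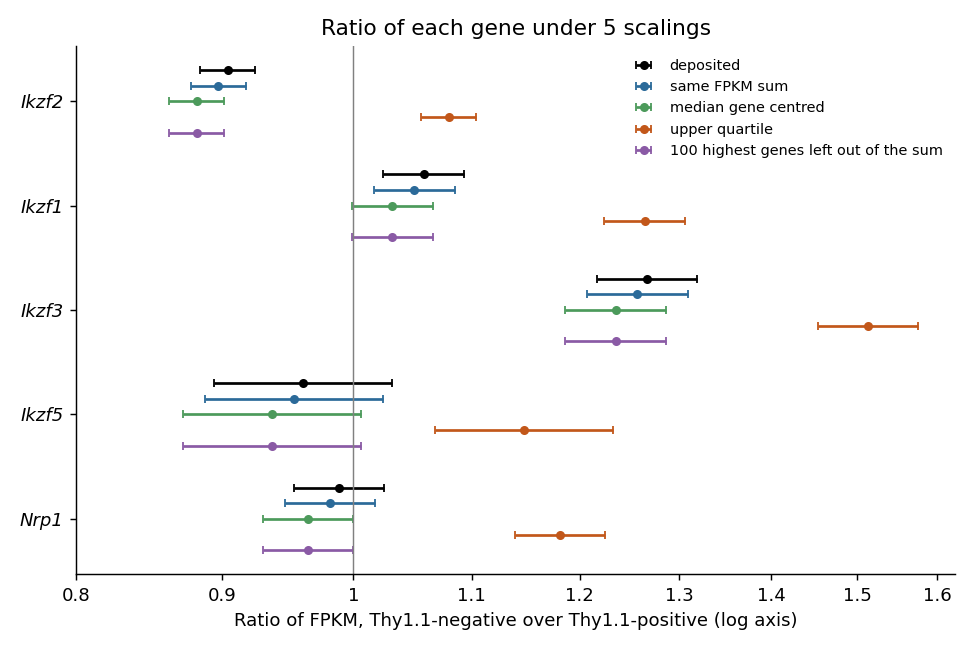
Ratio of FPKM, Thy1.1- over Thy1.1+ (x axis, log axis), with exact Clopper-Pearson 95% counting intervals, for each gene under the deposited scaling and 4 rescalings. Ikzf3 lies above 1 under each of them, and Ikzf2 lies below 1 except by the upper quartile, where it is 1.08.

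The sorted cells had high levels of the defining CD4 Treg transcripts in both libraries. Among them were Cd4 at 471 and 327 FPKM and Foxp3, the lineage factor, at 158 and 237 FPKM in the Thy1.1- and Thy1.1+ library. Of 6 such markers, 3 had a difference above 0 and 3 below. Il2ra was at least 2-fold lower in the Thy1.1- library, at 98.8 and 205 FPKM, where 1.15% of all genes were called lower. Its difference of -1.05 was -0.79 by the upper quartile. Tnfrsf18 was also lower, at 89.4 and 116 FPKM. Because Cd4 and Foxp3 went opposite ways, the direction of Ikzf2 and Nrp1 depends on which is used, a comparison added after their values were seen. Relative to Foxp3, Ikzf2 was at 2.07 and 1.53, a ratio of ratios of 1.35 (1.30 to 1.41), and for Nrp1 it was 1.48 (1.40 to 1.55). Relative to Cd4, Ikzf2 was at 0.695 and 1.11, a ratio of ratios of 0.627 (0.605 to 0.650), and for Nrp1 it was 0.686 (0.655 to 0.718). Ikzf3 was at 1.89 (1.79 to 1.99) relative to Foxp3 and 0.878 (0.836 to 0.923) relative to Cd4.

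Other cell types express some of these genes, Aiolos and Ikaros in B cells and neuropilin-1 in endothelial and some dendritic cells. The 10 lists of markers of other cell types held 40 markers, of which 12 had a mean of at least 1 FPKM, with summed levels per list of 0.464 to 14.7 FPKM in the Thy1.1- and 0.256 to 9.51 FPKM in the Thy1.1+ library. Of those 12, 2 passed 2-fold upwards and 1 downwards in the Thy1.1- library, where 3.08% of all genes were called either way. The higher markers were Itgam, a myeloid marker, at 4.17 and 0.272 FPKM, a ratio of 15.3 (9.10 to 27.8), and Klrb1c, a natural killer cell marker, at 2.08 and 0.445 FPKM, a ratio of 4.68 (2.48 to 9.60). The lower one was Hbb-bs, a haemoglobin gene, at 0.747 and 2.51 FPKM, from 8 and 27 reads. The 5 myeloid markers summed to 4.89 and 0.767 FPKM, in the direction of Ikzf3. Apart from Itgam, each of them was at most 0.298 FPKM in either library. The 3 natural killer cell markers summed to 4.31 and 3.66 FPKM, also in that direction. Within them Klrb1c was higher in the Thy1.1- library, whereas Eomes, the most abundant, was lower. Eomes stood at 2.22 and 3.00 FPKM, a ratio of 0.743 (0.576 to 0.955). Ncr1, another natural killer cell marker, and Dcn, a stromal marker, were listed at 0 in the Thy1.1- library. B cell markers had the highest sums, 14.7 and 9.51 FPKM over 7 markers, in the same direction as Ikzf3. Of the 3 with a mean of at least 1 FPKM, Cd79b (6.45 and 3.97 FPKM) and Cd22 (5.59 and 2.60 FPKM) were higher in the Thy1.1- library and Cd79a (1.63 and 2.07 FPKM) was not. The part of the B cell, myeloid and natural killer cell transcripts in the Ikzf3 difference was not tested. The B cell markers Ms4a1 and Pax5 were near 0, at 0.0935 and 0.330 FPKM in the Thy1.1- library, next to 118 FPKM of Ikzf3. The 4 endothelial markers summed to 0.464 and 0.256 FPKM and the 3 plasmacytoid dendritic cell markers to 4.62 and 4.22 FPKM, of which Tcf4 made up 4.30 and 4.06 FPKM and Siglech 0.101 and 0.0668 FPKM.

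The partners through which Ikaros family proteins act on chromatin were all within 2-fold. Of 17 subunits of the NuRD, Sin3 and CtBP complexes, all measured, none passed 2-fold in either direction, where 1.93% of all genes were called higher and 1.15% lower. Their median difference was -0.04 against 0.03 over all genes, with 8 members above 0 and 9 below. Chd3, a NuRD helicase, was the most abundant at 408 FPKM in the Thy1.1- and 494 FPKM in the Thy1.1+ library, a difference of -0.27. The least abundant was Ctbp2, a CtBP corepressor, at 1.23 and 1.09 FPKM from 27 and 24 reads. The differences ran from -0.31 for Gatad2b, a NuRD scaffold at 37.6 and 46.7 FPKM, to 0.31 for Mta3, another NuRD subunit, at 51.96 and 41.8 FPKM. The NuRD subunit most often tied to Ikaros, the helicase Chd4, stood at 255 and 262 FPKM.

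Ikaros and Aiolos proteins are the targets of a cereblon ubiquitin ligase in human cells treated with immunomodulatory drugs. Its 5 subunits were also within 2-fold, where 3.08% of all genes were called either way. Their differences ran from -0.09 to 0.19, with a median of 0.10 against 0.03 over all genes. Crbn, the substrate receptor cereblon, stood at 85.0 and 90.4 FPKM in the Thy1.1- and Thy1.1+ library, and Rbx1, the ring subunit, at 21.9 and 19.1 FPKM.

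Of 14 genes reported to be controlled by Ikaros family factors in lymphocytes, 6 had a mean of at least 1 FPKM. Of these 1 passed 2-fold upwards in the Thy1.1- library and none downwards, where 1.93% of all genes were called higher and 1.15% lower. Of the 6, 4 lay above 0 and 2 below, where 55.1% of all genes lay above 0. Their median was 0.38 against 0.03 over all genes, and it moved with the setting. It was 0.10 over the 14 genes without the filter, 0.24 at pseudocount 5, 0.54 at pseudocount 0.1 and 0.58 by the upper quartile. The higher gene was Tbx21, the gene of the Th1 transcription factor T-bet, at 7.57 against 3.03 FPKM, a difference of 1.09 that was 0.65 with a pseudocount of 5. Ifng, the Th1 cytokine interferon-gamma, stood at 7.33 and 3.74 FPKM, a difference of 0.81 that passed 2-fold by the upper quartile, at 1.04. Myc, a growth regulator, went the other way at 26.1 and 41.8 FPKM, a difference of -0.66. Notch1, a receptor whose target genes Ikaros restrains in thymocytes, was the most abundant at 257 and 258 FPKM. Dtx1, a Notch target, stood at 129 and 98.96 FPKM, with a ratio of 1.30 (1.24 to 1.36). Transcripts of Il2, which Helios is reported to repress in Treg cells, numbered 3 reads in the Thy1.1- and 1 read in the Thy1.1+ library.

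Ligands of neuropilins were scarce in these cells. Of 12 semaphorin and growth factor genes, 3 had a mean of at least 1 FPKM. None of these passed 2-fold, where 3.08% of all genes were called either way. Sema4a, which binds neuropilin-1 on Treg cells, had 15.9 FPKM in the Thy1.1- and 9.96 FPKM in the Thy1.1+ library, a ratio of 1.59 (1.37 to 1.86). Vegfa, vascular endothelial growth factor A, went the other way at 6.13 and 10.8 FPKM, a ratio of 0.570 (0.469 to 0.693). Sema3a, the classical semaphorin ligand, had 3 and 7 reads.

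Of 11 genes for neuropilin-2, plexins, growth factor receptors and cytoplasmic partners, 7 had a mean of at least 1 FPKM. Of these 1 was at least 2-fold lower in the Thy1.1- library and none higher, where 1.15% of all genes were called lower and 1.93% higher. Of the 7, 5 lay above 0 and 2 below, where 55.1% of all genes lay above 0. Their median was 0.06 against 0.03 over all genes. The lower gene was Nrp2, the paralog of Nrp1, at 0.400 against 1.89 FPKM, from 42 and 199 reads. Its ratio was 0.212 (0.148 to 0.297), while that of Nrp1 was 0.989, so the neuropilin genes differed from each other in these libraries. The difference of Nrp2 on the log2(FPKM + 1) scale was -1.04, and -0.97 by the upper quartile and -0.35 with a pseudocount of 5, both within 2-fold. Plxnd1, a semaphorin receptor, was the most abundant at 44.0 and 42.3 FPKM, and Plxna2 had the highest difference of 0.20 at 1.20 and 0.916 FPKM. Gipc1, whose product binds the tail end shown above, stood at 14.2 and 12.9 FPKM, a ratio of 1.09 (0.951 to 1.26). The growth factor receptor Kdr had 9 and 8 reads.

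Besides Helios and neuropilin-1, other genes have been reported to differ between thymus-derived and peripherally induced Treg cells. Of 4 such genes, all with a mean of at least 1 FPKM, 1 was called higher in the Thy1.1- library and 1 lower. Among all genes 1.93% were called higher and 1.15% lower. Of the 4, 3 are described here, and the gene called higher is not among them. Swap70, a guanine exchange factor reported higher in the thymus-derived cells, was lower in the Thy1.1- library at 20.6 against 45.1 FPKM, a difference of -1.09 that was -0.85 by the upper quartile and -0.97 with a pseudocount of 5. Igfbp4 and Dapl1, reported higher in peripherally induced cells, had ratios of 1.62 (1.44 to 1.83) and 2.58 (1.03 to 7.31), the latter from 18 and 7 reads. In absolute log2 difference each of these 3 genes was farther from 0 than Ikzf2 (-0.15) and Nrp1 (-0.02) in the same libraries. This list was put together with earlier results of these data known.

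**Figure D5:**
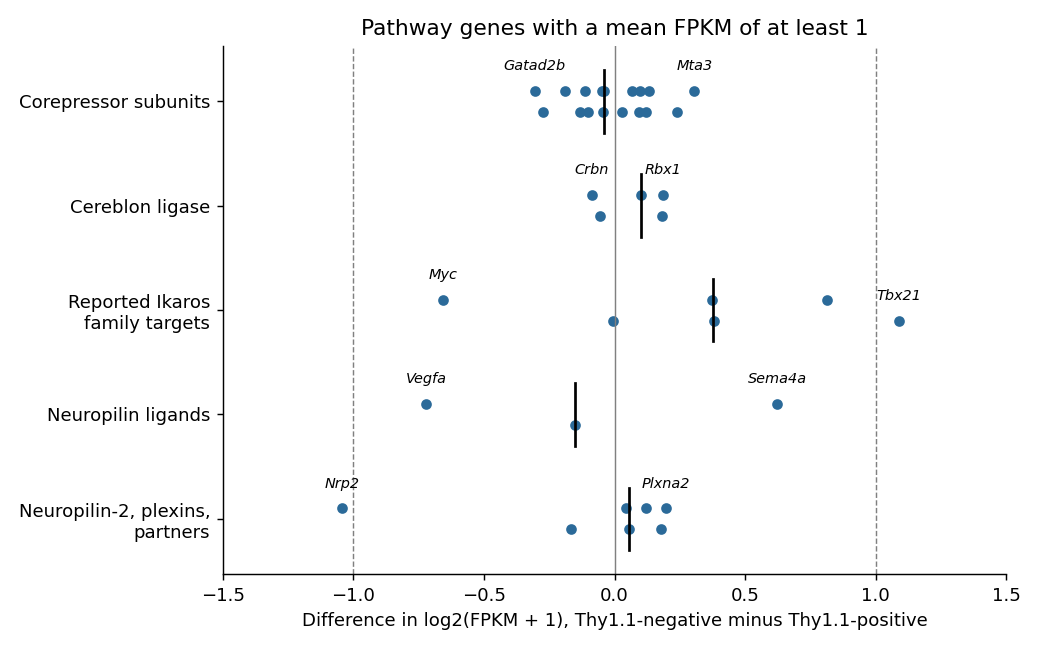
Differences in log2(FPKM + 1), Thy1.1- minus Thy1.1+ (x axis), for genes of 5 lists with a mean of at least 1 FPKM, 1 point per gene, with the median of each list as a black bar and dashed lines at 2-fold. The lowest and highest gene of each list and those past 2-fold are named, and corepressor and cereblon ligase genes lie between -0.31 and 0.31.

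To place the members by pattern, the nearest genes were sought over the 2 libraries among 8144 protein-coding genes with a mean of at least 5 FPKM, by Euclidean distance of log2(FPKM + 1). Nearest to Ikzf2 were Rpl22, a ribosomal protein gene, and Son, a splicing factor gene, at distances of 0.0217 and 0.0227. Nearest to Ikzf3 were Ifi203, an interferon-inducible gene, and Pstpip1, a cytoskeletal adaptor gene, at 0.0110 and 0.0426. Nearest to Nrp1 were Ccng2 and Stip1, nearest to Ikzf1 were Bzw1 and Stk38, and nearest to Ikzf5 were Ecpas and Gpn3. With 2 values per gene, such nearness states only that levels were alike.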

How the data were processed

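Each sorted population gave 1 RNA-seq library, built with NEBNext Ultra reagents from 3 µg of RNA, per the labels' protocols. The values deposited by the authors are FPKM for each Ensembl gene in both populations, and P and N in the column names were taken to mean Thy1.1+ and Thy1.1- cells. Per the submitters' processing notes, the tools were TopHat2 2.0.12, HTSeq 0.6.1 and Bowtie2 2.2.3 with mm9. Their settings: not given in the sources used here. Symbols (96.8% of IDs) and sequences came from GENCODE M21 on GRCm38.

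Whole reads were recovered from the deposited FPKM values: all 23442 genes above 0 in both libraries had whole-number ratios times a factor of 1.003, within 2e-12. Totals came from genes with 1 annotated transcript. Each gene's reads were the multiple with a whole-base length nearest the mean annotated transcript length, a choice that sets the width of intervals but no ratio. Recovered reads made 99.7% and 99.6% of the totals. The recovery was checked on simulated data with lengths set to the mean annotated transcript length. That check therefore does not cover the choice of multiple. Of the genes with a mean of at least 1 FPKM, 55.5% had an implied length within 1 base of the mean annotated transcript length. Ratio intervals are exact Clopper-Pearson, those of ratios of ratios normal approximations on the log scale, and both cover counting error only, since reads can share a PCR origin.

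Genes were called at a difference of 1 in log2(FPKM + 1) with a mean of at least 1 FPKM. The pseudocount understates changes of low genes. Zinc fingers were found as 2 cysteines 2 residues apart, 12 residues, and 2 histidines 3 to 5 residues apart. As alternatives, the pseudocount was set to 0.1 or 5, the filter was dropped or raised to 5 FPKM, and the rest were 1.5-fold and 4-fold rules, and rescaling to the same sum, to the median gene, by the upper quartile or without the 100 highest genes. Alternatives that use exon length, Foxp3 or Cd4, or leave out Vpreb1 and Igll1 were chosen after seeing the data. Named were the members, Ikzf4, and of each list the genes past 2-fold, the highest and lowest difference and the most abundant gene, with 2 nearest genes per member. Chd4, Ctbp2, Ifng, Dtx1, Il2, Sema3a, Gipc1, Kdr, Dapl1, Igfbp4 and single markers of other cell types were named after their values were seen. Some genes of these lists, although counted, are not reported here by name. The members and lists were chosen with earlier results of these data known. Python 3.11.15, SciPy 1.17.1 and pandas 2.3.3 were used.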

Additional observations from a re-analysis of the deposited data

How the results depend on the processing

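No paired analysis was possible because each population is 1 library. Of the differences of the members, those under pseudocounts of 0.1 and 5 and after rescaling to the same sum moved by less than the counting error. The filters leave the difference of a single gene unchanged by construction, so they are no check of it. Rescaling by the upper quartile gave 0.34 for Ikzf1, 0.11 for Ikzf2, 0.59 for Ikzf3, 0.20 for Ikzf5 and 0.24 for Nrp1; that factor is taken over 28107 genes above 0 in the Thy1.1- and 25709 in the Thy1.1+ library. Ikzf2 was at -0.18 when centred on the median gene and at -0.18 without the 100 highest genes. No member passed 2-fold under any of these settings; at 1.5-fold none did either with the deposited scaling.

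Across all genes, 247 were higher and 148 lower. These counts were 402 and 293 at pseudocount 0.1, 72 and 19 at pseudocount 5, 107 and 60 at a mean of at least 5 FPKM, 412 and 90 by the upper quartile, 745 and 493 at 1.5-fold and 31 and 9 at 4-fold. Of the reported Ikaros targets, 0 were 2-fold higher with a pseudocount of 5 and 2 by the upper quartile, and Vpreb1 and Igll1, under the filter, could not enter these counts. Of the neuropilin partners, 0 were 2-fold lower with a pseudocount of 5, at a mean of at least 5 FPKM or by the upper quartile. Of the 4 reported origin genes, 1 was higher and 1 lower at the main setting. The number higher was 2 at pseudocount 0.1, 0 at pseudocount 5 and 0 at a mean of at least 5 FPKM. The number lower was 0 with a pseudocount of 5 or by the upper quartile. With Ikzf4 in the family sum, the differences in share were 3.56 percentage points for Ikzf1, -0.0636 for Ikzf2, 4.49 for Ikzf3 and 0.381 for Ikzf5, against 1.56, -4.98, 3.69 and -0.280 without it. The cause of these shifts was not tested where the setting does not show it. Among the members, depth limits Ikzf5 most, and genes named with few reads (Il2, Sema3a, Kdr, Dapl1, Nrp2) are limited more; variation between animals and sorts was not measured.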
